A study of Mus musculus with 2 samples.

Results

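The genes described here were 9 feedback inhibitors and transcriptional targets of FGF-ERK signalling, chosen by symbol from the 31053 genes counted in the developing mouse eye: Spry1, Spry2, Spry4, Spred1, Spred2, Dusp6, Etv1, Etv4 and Etv5. Each was listed and detected in both libraries. The study dissociated eyecups at embryonic day E13.5 and made 1 single-cell RNA library per genotype from 1 embryo each. The control was Six3+/-;Six6+/-, so it lacked 1 copy of each gene and was not wild type. The double mutant (DKO) was Six3F/F;Six6-/-;a-Cre, in which Six6 was inactivated in every cell and Six3 in those cells reached by the retinal a-Cre driver, which acts mainly in the peripheral retina. The DKO eyecups were chosen for GFP-marked rosettes, whereas the control embryo carried no GFP. There being 1 library per genotype, no difference between genotypes could be tested, and every interval given is a 95% interval for counting error only. Embryo, library and genotype cannot be told apart.

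Fibroblast growth factors bind receptor tyrosine kinases and pass a signal through RAS, RAF and MEK to the kinase ERK. ERK activity in turn raises transcription of genes that act back on the pathway, so the transcripts of these genes are widely used as a readout of signalling. Sprouty proteins (Spry) and their Spred relatives restrain the step from receptor to RAF, Dusp6 is a phosphatase that removes the activating phosphates from ERK in the cytoplasm, and Etv1, Etv4 and Etv5 are ETS transcription factors of the PEA3 group that carry the response into the nucleus. In the eye, FGF signalling favours neural retina over pigment epithelium, helps to start neurogenesis and drives growth and differentiation of the lens. Six3 and Six6 are homeodomain transcription factors of the early eye field and retina.

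The control library held 9822 cells after filtering and the DKO library 12146, with medians of 7620 and 5879 unique molecular identifiers (UMIs, each standing for 1 captured transcript) per cell. Cells of both libraries were clustered together with the 9 members, Six3, Six6 and 78 other genes of the pathway kept out of the clustering features. Clusters were named from marker lists as naive-like progenitors (3802 control and 3205 DKO cells), neurogenic-like progenitors (1402 and 1665), ganglion-like cells (1061 and 2399), pigment epithelium-like cells (526 and 969) and lens-like cells (414 and 405), beside smaller classes. Levels are UMIs of a gene per 1000000 UMIs of the class (CPM). They come from 3' tags, 1 per transcript, so they do not scale with gene length. A member was called counted where it had at least 100 UMIs over both libraries in a class. Six6 stood at 365 CPM in control and 46.5 CPM in DKO naive-like cells, while Six3 stood at 302 and 240 CPM. Six3 and Six6 transcripts were thus still counted in the DKO library. Six6 was inactivated on both alleles in every DKO cell, so its UMIs there do not stand for intact Six6 transcripts. For Six3, intact transcripts and those of a deleted allele cannot be told apart, and Six3-low cells were also described alone. The libraries shared 22 cell barcodes. In the red blood-like clusters 9 and 11, taken as the level of free RNA after the data were seen, no member exceeded 2.93 CPM in either library. Spry4 and Etv4 lay near that level in several classes. So did Spry1 in control and DKO ganglion-like cells (1.454 and 1.755 CPM) and Etv5 in DKO neurogenic-like cells (2.45 CPM). Etv1 did so in control ganglion-like clusters 4 and 7 (1.65 and 1.78 CPM). Red blood-like cluster 12 was not used for the level of free RNA, with 36.75% predicted doublets in control and 8.07% in DKO. It held Spred1 at 36.8 CPM in control and 26.0 in DKO cells, and Dusp6 at 25.4 and 5.90 CPM.

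Spry1, Spry2 and Dusp6 were the members furthest below control in DKO naive-like cells with little Six3, and the 250 bases before their starts are shown for that reason. The sequences are RefSeq promoters of build GRCm38.p6, which is the same assembly as mm10, printed 5' to 3' on the strand of the gene, with the letters GGAA or TTCC, the core bound by ETS factors on either strand, in capitals. Dusp6 lies at chr10:99263231-99267489 on the plus strand, Spry1 at chr3:37639947-37644598 on the plus strand and Spry2 at chr14:105891947-105896819 on the minus strand. The windows are chr10:99262981-99263230, chr3:37639697-37639946 and chr14:105896820-105897069, and each runs up to the base before the first exon.
Dusp6: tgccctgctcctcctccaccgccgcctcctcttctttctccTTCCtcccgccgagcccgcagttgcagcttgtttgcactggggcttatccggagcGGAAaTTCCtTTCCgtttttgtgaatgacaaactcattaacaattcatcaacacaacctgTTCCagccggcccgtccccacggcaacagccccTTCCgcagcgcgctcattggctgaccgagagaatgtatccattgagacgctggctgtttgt
Spry1: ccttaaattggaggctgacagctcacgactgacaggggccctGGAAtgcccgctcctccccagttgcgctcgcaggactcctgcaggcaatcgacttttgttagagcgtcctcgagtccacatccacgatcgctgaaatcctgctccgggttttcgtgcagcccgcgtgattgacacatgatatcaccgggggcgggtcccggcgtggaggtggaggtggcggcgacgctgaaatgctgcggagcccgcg
Spry2: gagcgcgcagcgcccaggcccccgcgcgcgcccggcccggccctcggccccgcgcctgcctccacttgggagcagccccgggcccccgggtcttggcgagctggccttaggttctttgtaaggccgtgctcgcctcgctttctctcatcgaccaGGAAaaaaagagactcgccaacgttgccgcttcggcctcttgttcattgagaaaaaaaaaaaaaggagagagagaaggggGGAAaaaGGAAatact
The Dusp6 window held the core 6 times, the Spry2 window 3 times and the Spry1 window 1 time. Spry4 was left out of the motif search and no window was matched for Etv4, so the counts that follow cover neither gene. Searched on both strands, the longer ETS letters CCGGAA were in none of the 9 member windows searched (7 members), against 12% of 32851 promoter windows of the same length. The letters TGATAC, used here for homeodomain factors of the Six3 and Six6 kind, were likewise in none of the 9, against 4.6%. The GGAA core was searched only after both had given no match, and was in 8 of the 9 windows against 93.4% of all windows. The absence of these letters says nothing on binding of either family of factors.

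In the control library the members fell into different patterns over the classes. Dusp6 was highest in naive-like cells at 59.5 CPM (57.1 to 62.1), followed by pigment epithelium-like cells at 39.4 and neurogenic-like cells at 37.3, whose intervals overlapped. Ganglion-like cells held 12.7 CPM, the lowest of the 5 main classes, and the small amacrine- or horizontal-like and photoreceptor-like classes, with few UMIs, held 4.04 and 10.4 CPM. Dusp6 was thus lower at each step from naive-like over neurogenic-like to ganglion-like cells.

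Spry1 had another order. It was highest in lens-like cells at 20.1 CPM (16.3 to 24.6) and in neurogenic-like cells at 14.5 (12.3 to 17.0), which overlapped, and lower in naive-like cells at 9.32. Ganglion-like cells held 1.45 CPM. Its paralogue Spry2 was instead lower in neurogenic-like cells, at 7.45 CPM, than in naive-like cells at 17.4, pigment epithelium-like cells at 19.9 and lens-like cells at 20.8, and the last 3 had overlapping intervals. Spry4 was low throughout, between 1.62 CPM in neurogenic-like and 4.25 CPM in naive-like cells among the 5 main classes.

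The Spred genes varied less. Spred1, the most abundant member, ranged from 41.6 CPM in lens-like cells to 71.8 CPM in naive-like cells across the 5 classes. Spred2 ranged from 12.6 CPM in lens-like cells to 31.2 CPM in ganglion-like cells. Both were therefore well counted in ganglion-like neurons, where Spry1, Etv1 and Etv5 were near the low end of their ranges.

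Etv1 was highest in lens-like cells at 70.3 CPM, above naive-like cells at 39.1 and pigment epithelium-like cells at 37.5, which overlapped. Neurogenic-like and ganglion-like cells held 5.16 and 4.88 CPM. Of the 47 ganglion-like UMIs 33 came from cluster 16, mostly predicted doublets (23.5 CPM), while ganglion-like clusters 4 and 7 held 1.65 and 1.78 CPM. Etv5 showed a similar split, with 20.8 CPM in lens-like, 19.6 in naive-like and 16.8 in pigment epithelium-like cells against 5.73 in neurogenic-like and 3.84 in ganglion-like cells. Both of these ETS factors were several times lower in the classes that had entered neurogenesis. Etv4 stood at 4.996 CPM in naive-like cells and at 1.34 in neurogenic-like cells.

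**Figure D1:**
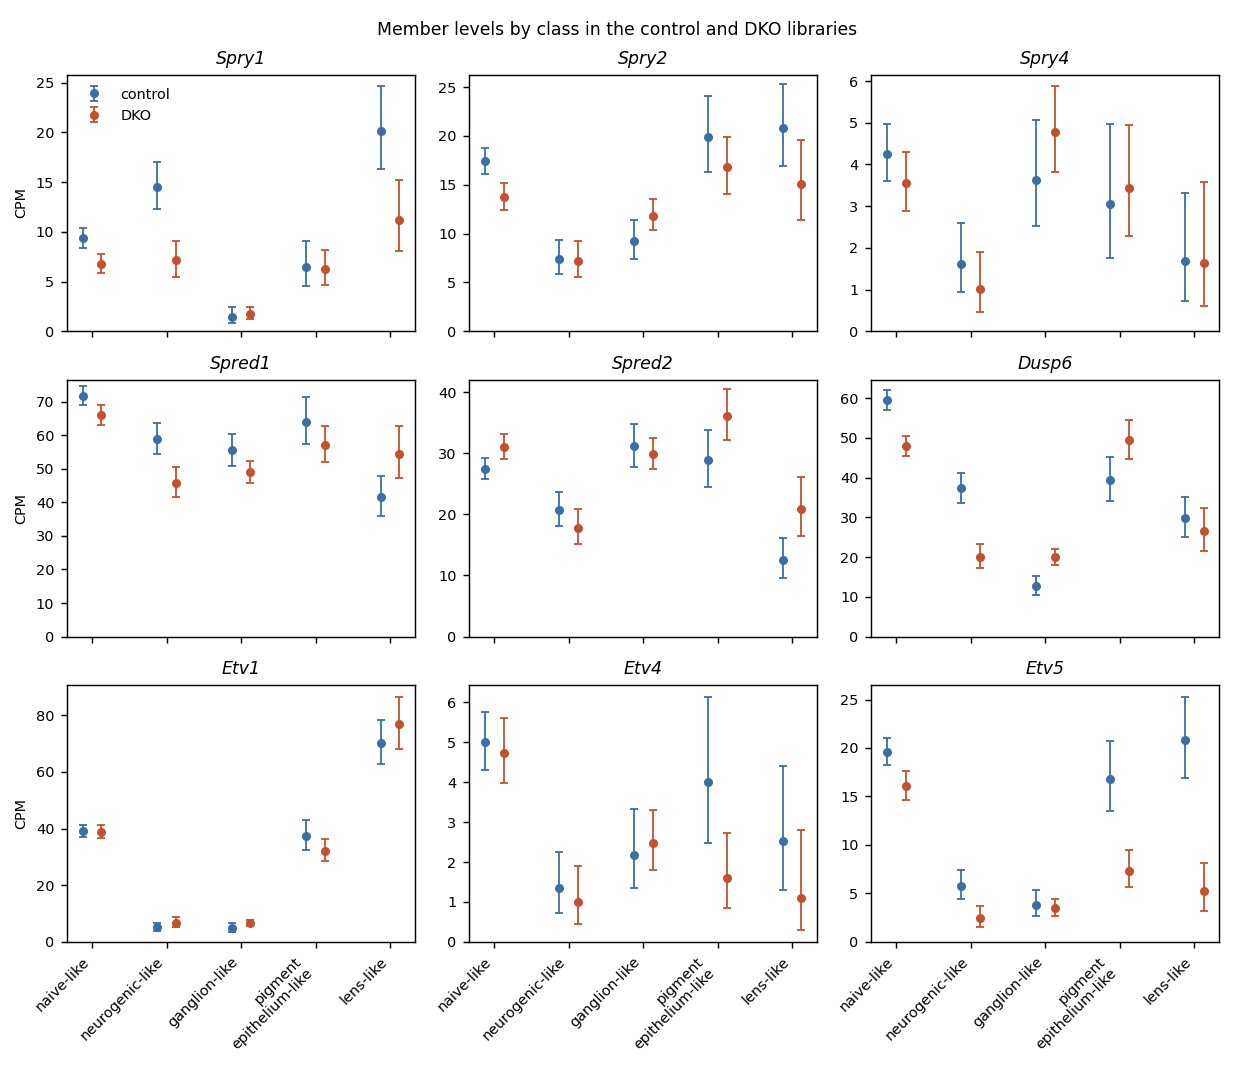
Level of each of the 9 members (y axis, UMIs per 1000000 UMIs of the class, own scale per gene) in 5 classes (x axis) in the control (blue) and DKO (red) library. Points are 1 library each and bars are 95% counting intervals. In the control library Dusp6 is highest in naive-like cells and Spry1, Spry2 and Etv1 in lens-like cells, and the points of Spry4 and Etv4 stay below 5 CPM in both libraries.

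Finer clusters showed variation within a class. Within naive-like cells Spry1 was highest in the finer cluster led by Smoc1, Vax2os and Aldh1a3, at 16.4 CPM in control and 10.4 in DKO cells. Etv1 was highest in the naive-like cluster led by Lor and Tagln, at 51.7 and 57.4 CPM. A cluster named ciliary margin-like at this resolution (471 control and 492 DKO cells) held Dusp6 at 61.9 and 58.0 CPM and Spry2 at 24.96 and 17.5 CPM.

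Across 18 control clusters, the genes whose level followed a member most closely were found by Spearman correlation of log2(CPM + 1) over 9413 genes. Etv1 was nearest to Fgfbp3 (rho = 0.977), Sept8 and Cp. Dusp6 was nearest to Prdx4 (0.977), Slbp and Tmem64, and Spry1 to Fgfrl1 (0.923), Zfp568 and Pum3. For Etv5 the nearest were Ppp2r5a (0.942), Add3 and Ccdc86, and for Spry2 Nme7 (0.932), Mrps6 and Cryz. The same measure gave Fasn (0.944) for Spred2, Ptp4a2 (0.928) for Spred1, Rnf113a1 (0.914) for Etv4 and Nrg3 (0.86) for Spry4. Among the members themselves Etv1 and Etv5 were the closest pair (0.917). All clusters share 1 library, so these are descriptions.

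In naive-like progenitors most members stood lower in the DKO library, by less than 1.5-fold. The median log2 ratio of DKO over control over the 9 members was -0.26, against 0.02 over all 11713 genes counted in this class, and 8 of the 9 ratios were negative. All 9 were counted and 0 passed 1.5-fold in either direction, where 5.32% of all counted genes were higher and 2.72% lower by that fold. The interval lay wholly below 0 for 5 members and wholly above 0 for 1.

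Among the feedback inhibitors, Spry1 stood at 9.32 CPM in control and 6.79 CPM in DKO naive-like cells, a log2 ratio of -0.46 (-0.72 to -0.20). Spry2 stood at 17.4 and 13.8 CPM (log2 ratio -0.34, -0.52 to -0.15). Dusp6 stood at 59.5 and 47.9 CPM (log2 ratio -0.31, -0.41 to -0.21). These 3 inhibitors were lower in the DKO library beyond counting error. Spred1 was lower by less, at 71.8 against 66.0 CPM (log2 ratio -0.12), and Spred2 was higher, at 27.5 in control against 31.0 CPM in DKO (log2 ratio 0.17, 0.04 to 0.30). Spry4 stood at 4.25 and 3.55 CPM, with an interval that spanned 0.

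The ETS factors differed among themselves. Etv5 stood at 19.6 CPM in control and 16.1 CPM in DKO naive-like cells (log2 ratio -0.29, -0.46 to -0.12). Etv1 stood at 39.1 and 38.8 CPM (log2 ratio -0.01, -0.13 to 0.10), so a difference of more than 0.13 either way lay outside its interval. Etv4 stood at 4.996 and 4.73 CPM. By cluster, the log2 ratios of Dusp6 were -0.21, -0.30 and -0.45 (clusters 0, 1 and 5 in that order), so it was lower in the DKO library in all 3 naive-like clusters. Cluster 5, led by Psrc1, Fabp7 and Cenpf, held 691 control and 985 DKO cells. At the finer resolution an unnamed cluster led by Fabp7, Sox21 and Dbx1 held 10 control and 528 DKO cells. The part of such cells in the naive-like ratios was not tested. Beside these values, the summed level of 12 genes of G2 and mitosis was 2068 CPM in control and 2745 CPM in DKO naive-like cells, and that of 12 immediate early genes was 1448 and 1121 CPM. Immediate early genes also respond to tissue dissociation. The part of either in these ratios was not tested.

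**Figure D2:**
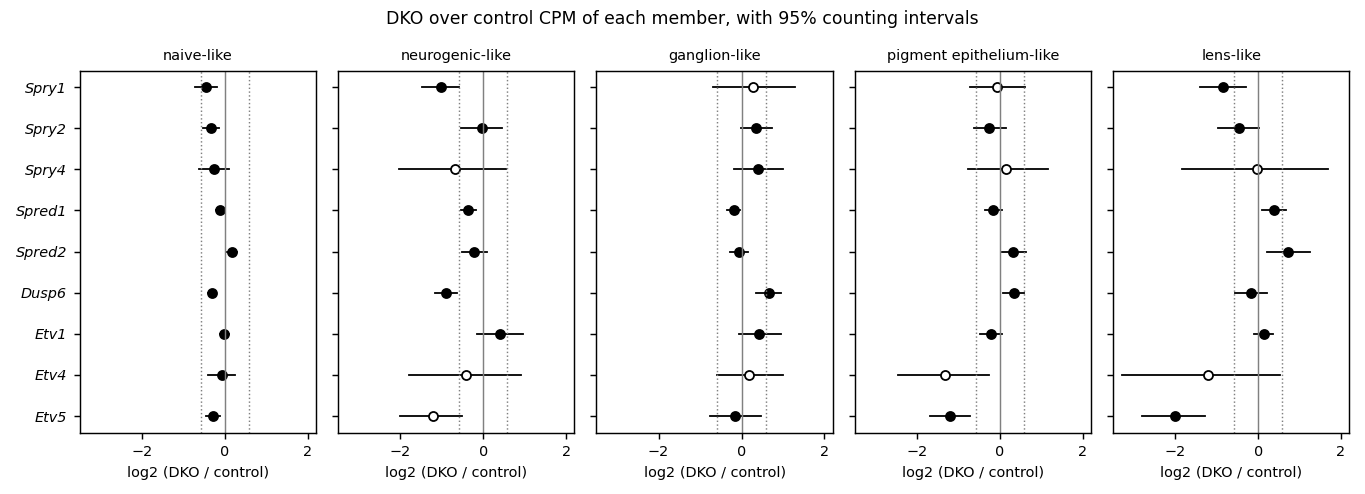
Log2 ratio of DKO over control (x axis) for each member (y axis) in 5 classes, 1 panel per class. Points are ratios of 1 library per genotype, bars are 95% counting intervals, and the dotted lines stand at 1.5-fold. Spry1 and Dusp6 lie past the lower line in neurogenic-like cells, Dusp6 past the upper line in ganglion-like cells, and Etv5 past the lower line in pigment epithelium-like and lens-like cells.

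Neurogenic-like progenitors showed larger differences. Spry1 stood at 14.5 CPM in control and 7.13 CPM in DKO cells, 2.03-fold lower (log2 ratio -1.02, -1.47 to -0.59). Dusp6 stood at 37.3 and 20.1 CPM, 1.86-fold lower (log2 ratio -0.90, -1.16 to -0.64). These were 2 of 6 counted members past 1.5-fold downward, where 4.25% of 9614 genes were lower by that fold, and 0 members were past it upward, where 6.22% were. Spred1 was lower by less, at 58.8 against 45.8 CPM (log2 ratio -0.36). Etv5, with 60 UMIs in control and 22 in DKO cells and so not counted, stood at 5.73 and 2.45 CPM (log2 ratio -1.22, -2.00 to -0.50).

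The other members in neurogenic-like cells had intervals that spanned 0. Spry2 stood at 7.45 and 7.25 CPM and Etv1 at 5.16 and 6.80 CPM. The median over the 9 members was -0.41, against 0.01 over all counted genes. This median was the ratio of Etv4, on 14 control and 9 DKO UMIs and so not counted (-1.80 to 0.90).

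The neurogenic-like class was made of 2 clusters whose shares differed between libraries: cluster 8, led by Penk, Dll4 and Sstr2, held 630 control and 453 DKO cells, and cluster 3, led by Sp8, Gm14226 and Trim9, held 772 and 1212. Dusp6 was higher in cluster 8. Within cluster 8 it stood at 55.0 and 37.5 CPM (log2 ratio -0.55) and within cluster 3 at 16.2 and 10.0 CPM (-0.69). It was thus lower in the DKO library within each cluster, by less than over the class. With both clusters weighted equally, a calculation added after seeing the data, the log2 ratio of Dusp6 was -0.58, which is just under 1.5-fold, and that of Spry1 was -0.77. All 12 S phase genes and all 12 genes of G2 and mitosis were also lower in DKO neurogenic-like cells, with sums of 1056 against 690 CPM and 2779 against 2075 CPM. The 6 markers of Eomes and Lhx9 neurons were all higher, with sums of 21.9 CPM in control and 285 CPM in DKO neurogenic-like cells. The part of these shifts in the member ratios was not tested.

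In ganglion-like cells, the newborn output neurons of the retina, the direction differed for Dusp6. It stood at 12.7 CPM in control and 19.96 CPM in DKO cells, 1.58-fold higher (log2 ratio 0.66, 0.36 to 0.96). It was the 1 member of 7 counted past 1.5-fold upward, where 7.88% of 10444 genes were higher by that fold, and 0 were past it downward, where 2.56% were. Spred1 had an interval below 0, at 55.6 and 48.9 CPM (log2 ratio -0.18, -0.34 to -0.03). Spry2 stood at 9.24 and 11.8 CPM (log2 ratio 0.36, -0.01 to 0.73). The median over the 9 members was 0.27, against 0.05 over all counted genes. This median was the ratio of Spry1, on 14 control and 32 DKO UMIs and so not counted (-0.68 to 1.29).

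The Dusp6 difference was unequal over the ganglion-like clusters. In cluster 7, led by Irx5, Irx3 and Sncg, Dusp6 stood at 13.95 CPM in control and 26.8 CPM in DKO cells (log2 ratio 0.94). In cluster 4, led by Ccer2, Rgs4 and Mmd2, it stood at 6.59 and 5.91 CPM (-0.16). The higher level was therefore seen in cluster 7 and not in cluster 4, where the interval spanned 0. Cluster 7 held 350 control and 1019 DKO cells. The third ganglion-like cluster, 16, consisted of 91.9% predicted doublets in control and 85.7% in DKO, and without predicted doublets the class ratio of Dusp6 was 0.84. It was 0.53 to 0.54, short of 1.5-fold, with another clustering resolution of 0.3 or another linear algebra kernel, 0.51 at resolution 1, and 0.39 with clusters weighted equally. Without cluster 16, left out after seeing the data, the log2 ratio of Etv1 moved from 0.43 to 1.17 and that of Etv5 from -0.15 to -0.79. Both then rested on few control UMIs, 8 and 6 for Etv1 in clusters 4 and 7 and 17 and 14 for Etv5. Ganglion-like cluster 4 had more Spry2, at 8.65 CPM in control and 13.8 CPM in DKO cells (log2 ratio 0.67). Markers of other cells moved too. From control to DKO ganglion-like cells the summed Eomes and Lhx9 neuron markers went from 48.7 to 239 CPM, those of ciliary margin from 94.8 to 185 CPM, of pigment epithelium from 2.18 to 29.2 CPM and of red blood from 13290 to 3774 CPM. Their part in the member ratios was not tested in this class.

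**Figure D3:**
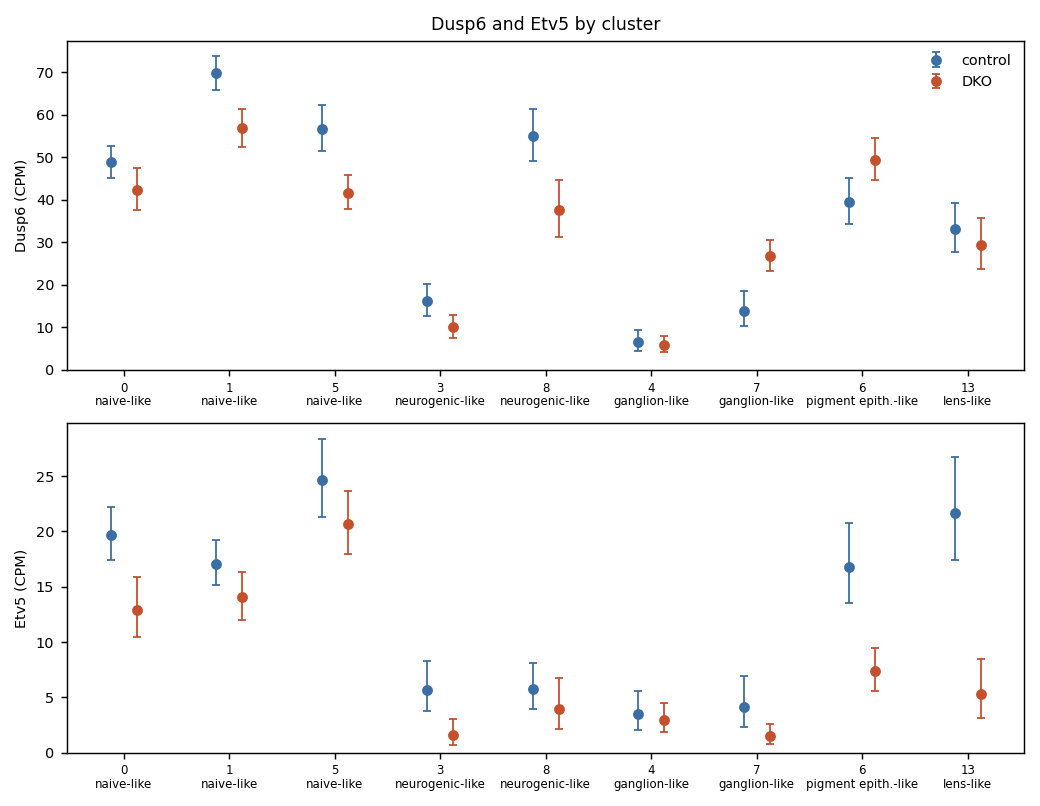
Dusp6 (top) and Etv5 (bottom) in UMIs per 1000000 UMIs of the cluster (y axis) in the 9 clusters shown (x axis, number and class), in the control (blue) and DKO (red) library. Points are 1 library each and bars are 95% counting intervals. Dusp6 is lower in the DKO library in clusters 0, 1, 5, 3 and 8 and higher in clusters 7 and 6, while Etv5 has its widest gaps in clusters 6 and 13.

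Pigment epithelium-like cells, whose only cluster also held all 8 ciliary margin markers above the level of the other cells, differed mainly in Etv5. Etv5 stood at 16.8 CPM in control and 7.35 CPM in DKO cells, 2.29-fold lower (log2 ratio -1.20, -1.69 to -0.71). It was the 1 member of 6 counted past 1.5-fold downward, where 3.44% of 9127 genes were lower by that fold, and 0 were past it upward, where 6.03% were. Dusp6 and Spred2 were higher in the DKO library by less, at 39.4 and 49.5 CPM (log2 ratio 0.33, 0.08 to 0.58) and at 28.9 and 36.1 CPM (log2 ratio 0.32, 0.04 to 0.62). Etv4, with 21 control and 13 DKO UMIs, stood at 4.02 and 1.59 CPM (log2 ratio -1.33). Thus Etv5 and Dusp6, both ERK-responsive, lay on opposite sides of 0 in this class. The summed ciliary margin markers were 911.5 CPM in control and 2368 CPM in DKO cells, those of pigment epithelium 903.5 and 1608, and those of periocular mesenchyme 58.9 and 121. The naive progenitor markers, whose class was among the highest for Etv5, summed to 2535 and 1435 CPM, and all 12 S phase genes were lower, with sums of 673 and 416 CPM. The class thus differed in make-up between libraries, and the part of this in the Etv5 and Dusp6 ratios was not tested.

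The a-Cre driver is a retinal one, and lens-like cells kept Six3, at 163.5 CPM in control and 256 CPM in DKO cells. Etv5 stood at 20.8 CPM in control and 5.21 CPM in DKO lens-like cells, 3.99-fold lower (log2 ratio -2.00, -2.79 to -1.28). Spry1 stood at 20.1 and 11.2 CPM (log2 ratio -0.84, -1.41 to -0.30). Spred2 was higher, at 12.6 in control and 20.8 CPM in DKO cells (log2 ratio 0.73, 0.22 to 1.24). These made 2 of 7 counted members past 1.5-fold downward and 1 upward, where 2.83% of 7092 genes were lower and 11.5% higher by that fold.

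Etv1, the most abundant ETS factor of the lens-like cells, stood at 70.3 and 77.0 CPM (log2 ratio 0.13, -0.10 to 0.36), and Dusp6 at 29.8 and 26.6 CPM. Etv5 was thus far lower in the DKO library while Etv1, of the same PEA3 group, was within counting error. The median over all counted genes in lens-like cells was 0.20, and 10 lens markers summed to 108600 CPM in control and 47300 CPM in DKO cells, so lens marker transcripts took up a smaller part of the DKO UMIs. The part of this in the member ratios was not tested.

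To set the members against loss of Six3, the DKO naive-like cells were split by subcluster, since single cells carry too few Six3 UMIs. Subclusters of the DKO library with under 50% of the control Six3 level were called Six3-low: 9 of 28 subclusters, with 1277 cells or 39.8% of DKO naive-like cells. Six3 stood at 113 CPM in these cells and at 333 CPM in the other 1928. The control is heterozygous for Six3, whereas DKO cells not reached by a-Cre keep both copies. The cutoff is thus set against the level of a heterozygote. Dusp6 stood at 37.4 CPM (34.1 to 41.0) in Six3-low cells and at 55.7 CPM (52.2 to 59.4) in the other DKO cells, against 59.5 CPM in control cells. The other DKO cells were close to control, with a log2 ratio of -0.10 (-0.21 to 0.02), and the Six3-low cells were not, at -0.67 (-0.82 to -0.52).

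Spry2 followed the same order, at 11.1 CPM in Six3-low cells, 15.7 CPM in the other DKO cells and 17.4 CPM in control cells. Spry1 stood at 5.98, 7.39 and 9.32 CPM. Dusp6, Spry1 and Spry2 were then the 3 members past 1.5-fold below control in Six3-low cells, whereas 0 had been in all DKO naive-like cells. Over all 11230 genes counted in this comparison, 7.22% were lower and 5.41% higher than control by that fold, with a median log2 ratio of -0.01. The 8 naive progenitor markers summed to 2014 CPM in Six3-low cells and to 4510 CPM in control naive-like cells. Six3-low cells thus also differed from control cells in make-up, and the part of this in the member ratios was not tested. Etv5 had the opposite order within the DKO library, at 17.5 CPM in Six3-low cells and 15.0 CPM in the others. Etv1 stood at 39.8 and 38.0 CPM.

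Six3-low over other DKO cells, within 1 library, gave a log2 ratio of -0.57 (-0.74 to -0.41) for Dusp6 and -0.50 (-0.81 to -0.20) for Spry2. The intervals of the other 7 members spanned 0, Spry1 among them at -0.31 (-0.74 to 0.12). Over 10461 genes the median of this ratio was -0.03, with 5.55% of genes lower and 2.59% higher by 1.5-fold. No member passed 1.5-fold in this comparison. Other values moved with the split. The 8 naive progenitor markers summed to 2014 CPM in Six3-low cells and 4384 CPM in the others, the immediate early genes to 683 and 1444 CPM, the pigment epithelium markers to 30.4 and 108 CPM, the ciliary margin markers to 343 and 565 CPM, the S phase genes to 1181 and 1522 CPM, and those of G2 and mitosis to 3006 and 2552 CPM. Fgf9 stood at 21.9 and 95.6 CPM. The part of these in the Dusp6 and Spry2 differences was not tested. Only 26 neurogenic-like and 125 ganglion-like DKO cells were Six3-low, too few for the members.

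**Figure D4:**
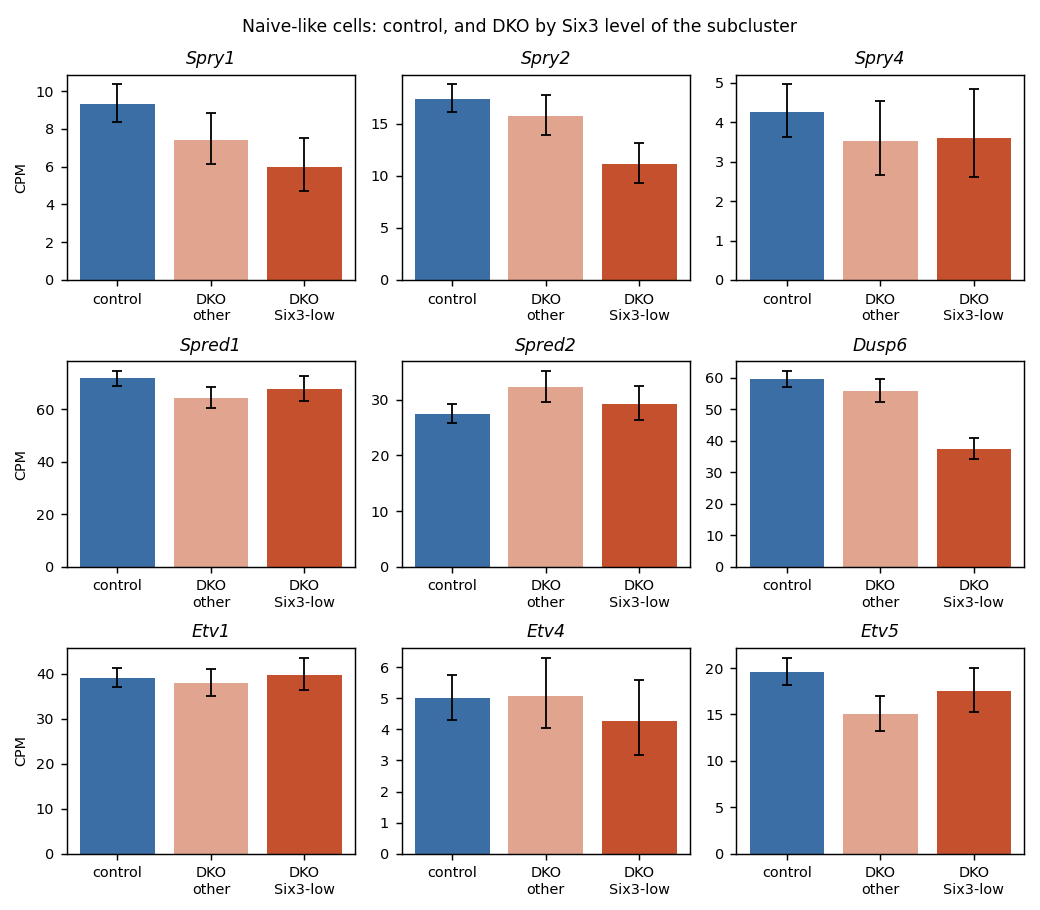
Level of each member (UMIs per 1000000 UMIs) in naive-like cells of the control library, of the Six3-low DKO subclusters and of the other DKO subclusters. Bars are 95% counting intervals. Dusp6, Spry1 and Spry2 are lowest in Six3-low cells, at 37.4, 5.98 and 11.1 CPM, while Etv5 and Etv1 are not.

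A second split used single cells, each thinned to 2000 UMIs, with or without a Six3 UMI. In control naive-like cells (1652 with and 2114 without), which serve as the background of this split, Dusp6 stood at 56.0 CPM in cells with and 60.3 CPM in cells without a Six3 UMI. In DKO naive-like cells (1152 with and 2008 without) Dusp6 stood at 59.0 and 42.8 CPM, a log2 ratio of cells without over cells with of -0.46 (-0.80 to -0.13). Spry1 stood at 9.99 and 9.46 CPM in control and at 10.9 and 4.98 CPM in DKO cells (log2 ratio -1.12, -2.05 to -0.22, on 25 and 20 UMIs). For Spry2 and Etv5 the DKO ratios were -0.45 and -0.52, with intervals that spanned 0. In naive-like cells Dusp6 and Spry1 thus differed with Six3 beyond counting error in the DKO library and not in the control library. Fgf9, Fgf15 and Six6 also differed with the split in DKO naive-like cells, with log2 ratios of -1.24, -0.66 and -0.37. In DKO pigment epithelium-like cells (197 with and 745 without) the ratio was -0.29 (-0.99 to 0.45) for Dusp6 and 0.08 for Spry1, both spanning 0. Whether the control and DKO ratios differ from each other was not tested.

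Shares of cells holding a member were compared at equal depth. In thinned naive-like cells, 413 of 3766 control cells (10.97%, exact binomial interval 9.99 to 12.01) and 285 of 3160 DKO cells (9.02%, 8.04 to 10.1) held a Dusp6 UMI. In neurogenic-like cells the shares were 91 of 1379 (6.60%, 5.35 to 8.04) and 51 of 1601 (3.19%, 2.38 to 4.17). The intervals of the share overlapped in naive-like cells and did not in neurogenic-like cells. Without thinning the shares were 37.7% and 31.0% in naive-like and 20.6% and 9.13% in neurogenic-like cells. Any member was found in 39.8% and 37.8% of thinned naive-like cells and in 23.4% and 17.0% of thinned neurogenic-like cells, against 0.516% of control and 1.82% of DKO cells of red blood-like cluster 9 and 1.04% and 0.763% of those of cluster 11. At least 3 members were found together in 1.06% of control and 0.506% of DKO thinned naive-like cells.

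Clusters 10 and 14 held DKO cells only. Cluster 10, 628 cells led by Tbr1, Rspo3 and Lhx9, held Dusp6 at 3.23 CPM, against 47.9 CPM in DKO naive-like and 19.96 CPM in DKO ganglion-like cells. Dusp6 was also low in other DKO neurons, at 5.91 CPM in ganglion-like cluster 4 and 6.055 CPM (1.97 to 14.1) in amacrine- or horizontal-like cells. The interval in cluster 10 was 1.48 to 6.13 CPM. The Etv5 level of cluster 10 rested on 1 UMI, and Spry2 and Spred2 stood at 12.2 and 24.7 CPM. The neurons of cluster 10 thus held little Dusp6 and Etv5, both near the level of free RNA, with Spry2 near its level in other neurons. Cluster 14, 422 unnamed cells led by Fabp7, Sox21 and Pantr1, held Etv5 at 16.5 CPM and Etv1 at 36.4 CPM, both within counting error of naive-like DKO cells, and Dusp6 at 29.2 CPM, below them (log2 ratio -0.71, -1.06 to -0.38). Since each of these clusters comes from 1 library, cluster and library cannot be told apart.

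The rest of the pathway was described by 78 genes in 6 groups. In naive-like cells 62 were counted, of which 2 were higher and 5 lower by 1.5-fold in the DKO library, where 5.32% of all counted genes were higher and 2.72% lower. The 2 were receptors, Fgfr3 at 2.67 CPM in control and 6.75 CPM in DKO cells and Fgfr2 at 6.01 and 14.6 CPM. Among those lower were the ligand Fgf9, at 135 and 64.3 CPM, the phosphatase Dusp9, at 14.6 and 6.13 CPM, and the stress-responsive factor Atf3, at 28.5 and 11.8 CPM. The other ligand of the retinal progenitors, Fgf15, stood at 449.9 and 386 CPM. The members thus lay beside lower Fgf9 and higher Fgfr2 and Fgfr3. The 7 FGF receptors and co-receptors together summed to 304.7 CPM in control and 298.7 CPM in DKO naive-like cells. Of these, 3 were higher and 4 lower in the DKO library. None of the 19 counted adaptor and RAS-RAF-MEK-ERK genes passed 1.5-fold.

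In neurogenic-like cells 54 pathway genes were counted, with 0 higher and 10 lower (6.22% and 4.25% of all counted genes). Immediate early genes made up 6 of the 10, with Fos at 125 CPM in control and 57.0 CPM in DKO cells and Fosb at 36.9 and 14.5 CPM. The decoy receptor Fgfrl1, the gene nearest to Spry1 across control clusters, stood at 21.0 and 11.1 CPM, and Fgf9 at 70.5 and 39.0 CPM. In ganglion-like cells 56 were counted, with 2 higher and 5 lower (7.88% and 2.56% of all). Il17rd, another feedback inhibitor of FGF signalling, stood at 9.14 and 4.44 CPM and Dusp7, a phosphatase of the Dusp6 subgroup, at 4.57 and 6.96 CPM.

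In pigment epithelium-like cells 57 pathway genes were counted, with 1 higher and 6 lower (6.03% and 3.44% of all). Fgf15 stood there at 130 CPM in control and 59.4 CPM in DKO cells, Fgf9 at 64.3 and 25.6 CPM and Dusp9 at 13.6 and 4.41 CPM, and the 1 higher gene was Dusp4, at 11.7 and 18.9 CPM. In lens-like cells 47 were counted, with 5 higher and 2 lower (11.5% and 2.83% of all). Sos1, the exchange factor that loads RAS, stood at 25.6 and 47.4 CPM, and the ETS factors Elf2, Etv3 and Elk4 were also among the 5. They were 3 of 7 counted ETS genes outside the members.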

How the data were processed

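Both libraries were 10x Genomics 3' libraries. The deposited matrices hold whole-number UMI counts per gene and cell, which the authors made with Cell Ranger 3.1.0 on mm10, without normalisation. The steps that follow were run on these counts. A cell was retained at over 200 and under 6000 detected genes if mitochondrial transcripts made up less than 20% of its UMIs, limits taken from the study. The libraries were integrated with Seurat 5.3.0 (R 4.3.3; canonical correlation, 2000 variable genes, 20 dimensions, resolution 0.5, finer clusters at resolution 1). Members, pathway genes, Six3, Six6, sex-linked and globin genes were left out of the features. A cluster took a class name where at least 75% of the class markers lay above the other cells. A cluster of low depth with no own marker among its 10 leading genes stayed unnamed. Cluster 2 was left out of the naive-like class for this reason, though 6 of 8 naive progenitor markers lay above. It held 1034 control and 1146 DKO cells, with medians of 1042 and 976 UMIs. Scrublet (scanpy 1.11.5) gave doublet scores, read at the threshold set for the DKO library, which called 3.05% of control and 2.71% of DKO cells, since the automatic control threshold called 0. They were kept, and left out as an alternative.

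UMIs were summed per class and library, the only unit of replication, and no test was run. Levels have exact Poisson intervals and log2 ratios have intervals from the exact binomial split of UMIs, at 95%, covering counting error only. No pseudocount was added. The text names all members, at most 6 pathway genes per class past 1.5-fold with Fgf9 and Fgf15, the 3 nearest genes per member (fewer where space is short) and 3 leading genes per cluster. The members and lists were chosen with earlier results of these data known. The calculation was tried on simulated Poisson counts drawn from the control class means. That is the error model of the intervals, without variation between cells or embryos, so it checks the arithmetic only. Python 3.11.15, numpy 2.4.6, scipy 1.17.1, pandas 2.3.3 and, for TMM scaling factors only, edgeR 4.0.16 were used.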

Additional observations from a re-analysis of the deposited data

Results flagged for a closer look

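Dusp6 lay on opposite sides of 0 in consecutive classes of the neurogenic series. Its log2 ratio of DKO over control was -0.90 in neurogenic-like cells, at 37.3 CPM in control and 20.1 CPM in DKO cells, and 0.66 in ganglion-like cells, at 12.7 and 19.96 CPM. The unrounded ratios differed by 1.55 on the log2 scale. Dusp6 is listed because its single neurogenic-like ratio and its single ganglion-like ratio had opposite signs. Both classes come from the same 1 library per genotype, so the difference between the classes was not tested. The ratio was below 0 in both neurogenic-like clusters (-0.69 in cluster 3 and -0.55 in cluster 8), and above 0 in ganglion-like cluster 7 (0.94) but not in cluster 4 (-0.16). In ganglion-like cluster 16, mostly predicted doublets, it was 0.17, with an interval that spanned 0. Both class ratios were smaller in size with clusters weighted equally.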

How the results depend on the processing

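No paired analysis was possible because there was 1 library on each side, and for the same reason no replicate could be left out. The median log2 ratio over the 9 members ran from -0.29 to -0.03 over the alternatives in naive-like cells and from -0.58 to -0.03 in neurogenic-like cells, and ranged from -0.03 (Six3-low subclusters) to 0.27 in ganglion-like cells, each within the wide counting interval of the member at the median. In the 26 Six3-low neurogenic-like cells Spry4 and Etv4 had 0 UMIs and were ranked lowest, and over the 7 members with a UMI the median was 0.03. Counts of members past 1.5-fold moved more. In naive-like cells the count of lower members went from 0 to 3 when DKO cells of Six3-low subclusters alone were used. In neurogenic-like cells the 2 lower members became 1 with cells thinned to 2000 UMIs, 0 on the log2 scale of the mean count per 10000 plus 1, and 1 with clusters weighted equally. The count of higher members there went from 0 to 1 with doublets left out, with the mean of per-cell CPM and in Six3-low subclusters. In ganglion-like cells the count of lower members went from 0 to 1 with doublets left out, in Six3-low subclusters and without cluster 16. The 1 higher member there became 0 at resolution 0.3, at resolution 1, with another linear algebra kernel, on the log2 scale plus 1 and with clusters weighted equally, and 2 with doublets left out, with the mean of per-cell CPM, in Six3-low subclusters and without cluster 16. Dusp6 reversed in Six3-low subclusters, to 0.18 in neurogenic-like cells (10 UMIs) and to -0.03 in ganglion-like cells (11 UMIs). Of the single values of the members, 132 of 144 in naive-like, 114 of 124 in neurogenic-like and 126 of 135 in ganglion-like cells stayed within the counting interval of the reported value. These intervals are wide for members with few UMIs. The sign was opposite to the reported one for 8, 11 and 11 values in the same order of classes. The plus 1 scale shrinks all ratios of low genes by its construction, and Six3-low cells were few outside the naive-like class. For the other shifts the cause was not tested. TMM scaling moved all genes by 0.02 to 0.05. Equal weighting, leaving out cluster 16 and the alternatives that added cluster 14 or left out the cluster led by Lor were chosen after seeing the data. Depth limited Spry4 and Etv4 most: even in naive-like cells Spry4 had 159 control and 102 DKO UMIs and Etv4 187 and 136.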
